A study of Mus musculus with 3 samples.

Results

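Imprinted genes are expressed mainly from the copy inherited from one parent, and 10 of them, chosen around the large spread of the long noncoding RNA Kcnq1ot1, were followed in NIH3T3, a mouse fibroblast line of embryonic origin. The genes were Kcnq1ot1, Cdkn1c, H19, Igf2, Igf2r, Peg3, Mest, Dlk1, Meg3 and Plagl1, and they were read through the probe sets whose platform annotation gives exactly 1 gene symbol. That left 33 probe sets of 9 genes, out of 34945 such probe sets on an array of 45101. The only H19 probe set carries a second symbol, so H19 has none. The genes were chosen by the signals of Kcnq1ot1 on these same 3 arrays, which are given here as a description and support nothing.

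The series belongs to an RNA interference screen for cells that withstand oxidative stress. The controls, empty vector 1 (EV1) and empty vector 2 (EV2), are arrays of untreated NIH3T3 cells kept in calf serum with the vector alone, labelled basal. The RetSat shRNA array holds NIH3T3 cells with an shRNA against retinol saturase, a line whose label calls its resistance to tert-butyl hydroperoxide high. Growth conditions and treatment are not stated for the RetSat shRNA cells, and the labels do not say whether any group was a single clone or whether the controls were grown as separate cultures. Each p-value here therefore covers the spread of these controls alone, and that spread may be technical. In bulk RNA, fewer cells that express a gene and less of its RNA in each cell cannot be told apart.

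In a cell that follows the imprint, DNA methylation laid down in the germ line marks one parental copy of a control region, and that mark decides which genes of a cluster are transcribed. Kcnq1ot1 starts in such a region inside the Kcnq1 gene and, made from the paternal copy, silences neighbours of the cluster, among them the cell cycle inhibitor Cdkn1c. Several of these genes act on growth: Igf2 encodes a fetal growth factor, Igf2r the receptor that clears it, and H19, Meg3 and Kcnq1ot1 are noncoding.

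Kcnq1ot1 lies at chr7:143213111-143296547 of GRCm38.p6, a span of 83.4 kb within Kcnq1 (chr7:143106877-143427050), transcribed from the opposite strand of that gene. In the same build Cdkn1c lies at chr7:143458339-143461059, Igf2 at chr7:142650768-142666816, H19 at chr7:142575530-142578146 and Peg3 at chr7:6703892-6730462. Dlk1 (chr12:109452485-109463336) and Meg3 (chr12:109540996-109571729) share a cluster on chromosome 12, Igf2r lies at chr17:12682406-12769706, Mest at chr6:30733506-30748466 and Plagl1 at chr10:13090832-13131694. The 3 genes with a tested probe set at least 2-fold higher on EV1 than on both other arrays were Kcnq1ot1, Peg3 and Meg3, and their promoters are shown for that reason, as the 250 bases before the annotated start in RefSeq (GRCm38.p6, 5′ to 3′ along the gene's own strand). Capitals mark the letters CCAAT, or ATTGG where they stand on the other strand.
Kcnq1ot1 (chr7:143296548-143296797, minus strand): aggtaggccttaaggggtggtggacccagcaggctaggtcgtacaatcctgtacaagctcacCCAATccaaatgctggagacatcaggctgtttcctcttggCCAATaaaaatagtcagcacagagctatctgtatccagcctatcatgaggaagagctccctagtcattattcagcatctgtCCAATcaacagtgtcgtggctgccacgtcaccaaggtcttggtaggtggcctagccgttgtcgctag
Meg3 (chr12:109540746-109540995, plus strand): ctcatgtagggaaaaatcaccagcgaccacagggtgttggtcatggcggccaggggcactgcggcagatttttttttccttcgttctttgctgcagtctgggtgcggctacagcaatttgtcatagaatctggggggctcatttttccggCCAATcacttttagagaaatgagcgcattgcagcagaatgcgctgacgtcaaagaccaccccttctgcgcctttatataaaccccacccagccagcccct
Peg3 (chr7:6730420-6730669, minus strand): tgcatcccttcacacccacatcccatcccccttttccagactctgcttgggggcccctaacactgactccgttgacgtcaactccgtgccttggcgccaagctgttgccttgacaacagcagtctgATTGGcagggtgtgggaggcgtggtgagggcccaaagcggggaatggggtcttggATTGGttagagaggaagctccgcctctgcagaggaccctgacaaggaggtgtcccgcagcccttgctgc
The Peg3 window overlaps the end of the gene span given above, because it precedes another annotated start. The Kcnq1ot1 window holds 3 such motifs, all on its own strand, and the Peg3 window 2, both on the other strand, while this Meg3 window holds 1. The motif was looked for after the sequences had been seen. Of the 32851 windows of this length in RefSeq, 33.8% hold at least 1, 10.1% at least 2 and 2.79% at least 3. The windows of Igf2r, Dlk1, Plagl1 and Mest hold none, 1 of the 4 Igf2 windows holds 1, and the other window of Meg3 holds none. The number of CpG dinucleotides, where DNA methylation falls, was 5, 10 and 8 in the printed windows of Kcnq1ot1, Meg3 and Peg3, against a median of 6 over all windows and 27 in that of Igf2r. A match of letters is not a binding site.

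The probe set of H19 carries the symbols of H19 and Mir675, a microRNA gene within the H19 transcript, and the array cannot separate them. The mature microRNAs are shown with the seed, bases 2 to 8, in capitals.
mmu-miR-675-5p: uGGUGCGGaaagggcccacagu
mmu-miR-675-3p: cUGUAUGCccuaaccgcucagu
This shared probe set read 16.6 and 17.7 on the controls and 9.8 on the shRNA array, and all 3 signals lie below the array medians of 35.7 to 39.4.

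Retsat, the targeted gene, read 416 on EV1, 496 on EV2 and 69.5 on RetSat shRNA at its brighter probe set, which is 15.2% of the control mean. All 13 fibroblast markers listed lay above the array median on every array, with summed signals of 102669, 100019 and 102477 on EV1, EV2 and RetSat shRNA, as did 3 of 6 epithelial, 2 of 5 haematopoietic, 1 of 4 adipocyte and 1 of 5 neural markers and 0 of the 4 endothelial and 5 skeletal muscle markers. The summed signals of the epithelial, haematopoietic, adipocyte and neural lists ran from 162.4 to 523.9. The log2 differences over the 19518 probe sets tested, those whose mean log2 signal reached the median of the array, had an SD of 0.789 between the empty-vector arrays, 0.806 between RetSat shRNA and EV1, and 0.383 between RetSat shRNA and EV2, so EV1 was the array farthest from the others. The closest pair, EV2 and RetSat shRNA, are also the arrays whose labels share the number 2. What that number marks is not known, and its part in their likeness was not tested. Log2 values are log2(signal + 10.2) throughout, which understates the change of dim probe sets. Where 3 signals follow each other they are in the order EV1, EV2 and RetSat shRNA.

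Of the 33 probe sets of the imprinted genes, 15 were bright enough to be tested, and they came from 7 genes (Kcnq1ot1, Igf2, Igf2r, Peg3, Dlk1, Meg3 and Plagl1). Of these 15, 14 read lower on RetSat shRNA than on either control and 1, for Igf2, read higher than either. Over all probe sets tested, 29.2% lay below both and 30.8% above both, while 51.3% lay below EV2 and 47% below EV1. By gene, at the brightest probe set, 6 of 7 lay below both, against 25.4% of all 10843 genes (34.4% lay above both). Over all 33 probe sets, 18 lay below both, 7 above both and 8 between, against 31.9% below both among all 34945 without a filter. EV1 was the highest array for 20 of the 33 (36.9% without a filter) and for 13 of the 15 tested (39.2%), and the lowest for 1 of the 15, of Igf2 (46.2%). The genes were chosen with these values known and several probe sets share a gene, so the count describes these arrays and is no test. Most of the 14 differences from the nearer control were small, though 7 of 15 probe sets read at least 2-fold lower than EV1. The rule of size asks for 2-fold or more from each control on the log2(signal + 10.2) scale. By it 1 probe set read lower, of Kcnq1ot1, and 0 read higher, against 0.932% and 0.149% of all tested. With each array centred on its median, the difference from EV1 over all tested probe sets shifted by 0.11 and that from EV2 by 0.07. The count below both was then 13 of 15, as a Meg3 probe set (1452905_at) lay 0.02 above EV2.

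In 13 of the 15 the order was EV1, then EV2, then RetSat shRNA, from high to low, which 21.4% of all tested probe sets showed, and 1, of Igf2, had the reverse order (24.1%). EV1 exceeded EV2 at least 2-fold in 6 of 15 (11.6% of all tested) and RetSat shRNA in 7 of 15 (12.7%), EV2 exceeded RetSat shRNA in 1 of 15 (1.51%), and RetSat shRNA exceeded EV1 in 1 of 15 (3.58%). In 3 of 15, of Igf2r, Dlk1 and Meg3, the smaller difference of RetSat shRNA from a control exceeded the gap between the controls, against 9.5% of all tested. No probe set of the other 6 genes passed limma's moderated test (0 of 13 at an adjusted p of 0.05 over all probe sets, each with an adjusted p of 0.9999, and 0 of 13 at an unadjusted p under 0.05, the lowest being 0.101). Limma called 0 of the 19518 probe sets, with 201 (1.03%) at an unadjusted p under 0.05. With 1 residual degree of freedom from controls that lay far apart, such a count does not show that levels were equal. For Kcnq1ot1 no p is given, because its spread chose the genes.

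**Figure D1:**
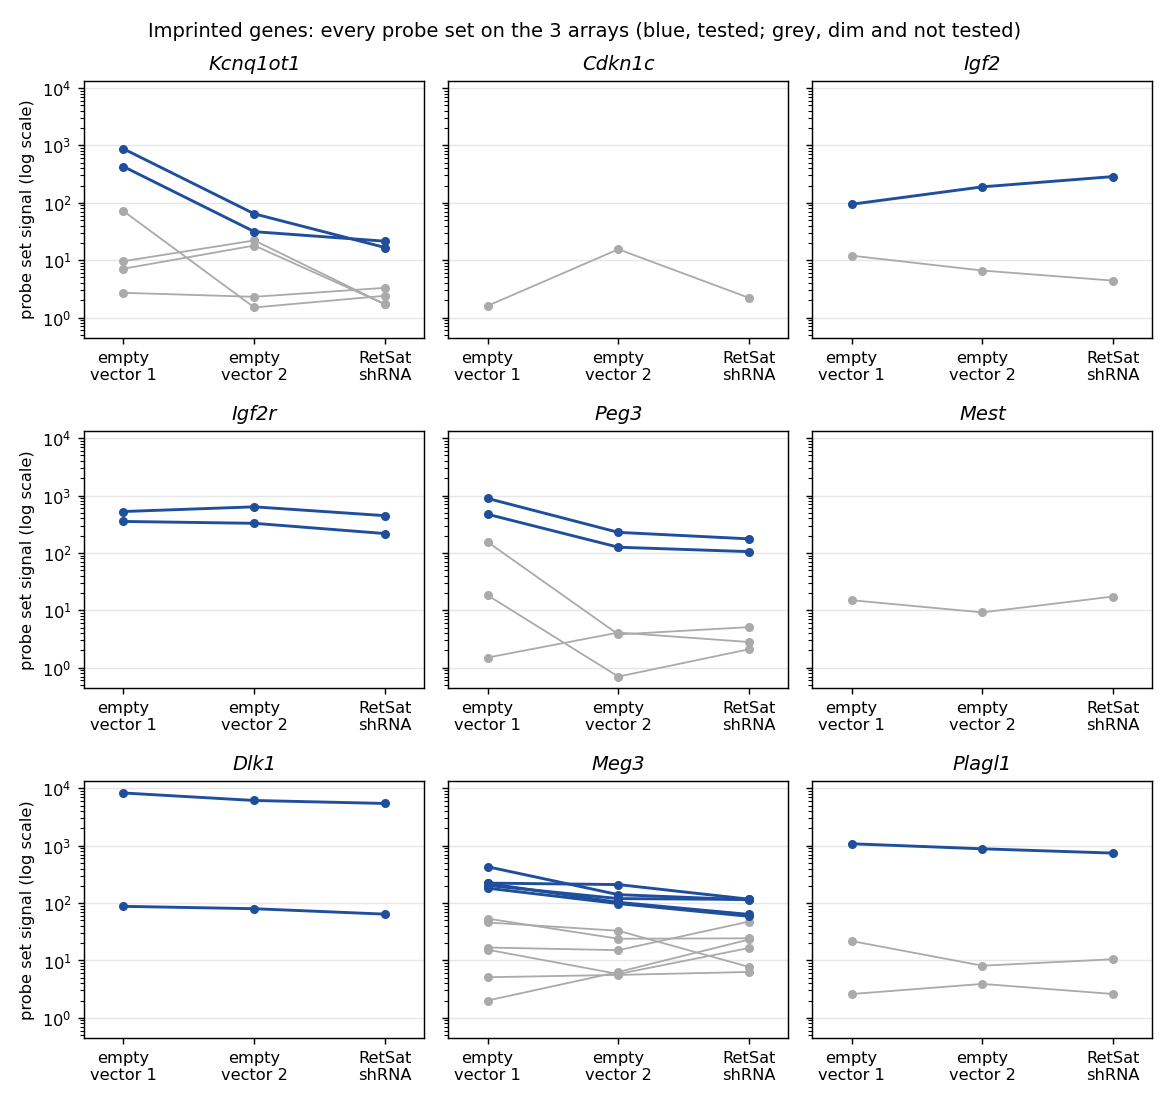
Signal of every probe set (log axis) of the 9 imprinted genes with a probe set, on EV1, EV2 and RetSat shRNA, where each line joins the 3 readings of 1 probe set. The 15 tested probe sets are blue and the 18 dim ones grey, and the tested ones of Kcnq1ot1, Peg3 and Meg3 stand highest on EV1 while the bright Igf2 probe set stands highest on RetSat shRNA.

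Kcnq1ot1, the silencing RNA of its cluster, was bright on EV1 and far dimmer on both other arrays. Its brightest probe set (1458161_at) read 872 on EV1, 64.2 on EV2 and 16.6 on RetSat shRNA, and the other tested one (1457781_at) read 428, 31.4 and 21.4. EV1 exceeded EV2 by nearly the same ratio at both, 13.6. Both RetSat shRNA signals lay below that array's median of 35.7, so the size of the step from EV2 to RetSat shRNA is uncertain. On the log2 scale the brighter one differed from EV1 by -5.04 and from EV2 by -1.47. The second probe set lay under the signal that the filter corresponds to (33.3) on both of the dimmer arrays and was tested only through its level on EV1.

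The other 4 probe sets of Kcnq1ot1 were dim. One of them (1442029_at) repeated the pattern of the controls, at 71.5 on EV1, 1.5 on EV2 and 2.4 on RetSat shRNA. A pair of them read highest on EV2, at 9.6, 22.1 and 1.7 for 1446255_at and 7.1, 18 and 1.7 for 1441588_at. The last, 1459443_at, read 2.7, 2.3 and 3.3. Hence 3 of 6 probe sets were highest on EV1 (36.9% of all without a filter) and 4 of 6 lowest on RetSat shRNA (31.9%). Of these 4, the pair at 1.7 lay below the array median on every array. No detection calls were used, so whether signals of this size stood above background is unknown.

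Among all genes tested, the 5 whose profile over the 3 arrays lay nearest to the brightest Kcnq1ot1 probe set, by Euclidean distance of centred log2 values, were Postn, Cenpf, Smc3, Syne2 and Atm. Postn, the matrix protein periostin, read 317, 18.8 and 4 (distance 0.393) on EV1, EV2 and RetSat shRNA. Cenpf, a kinetochore protein, read 1280.4, 114 and 66 (0.718), and the cohesin subunit Smc3 read 1886, 168 and 106 (0.776). The nuclear envelope protein Syne2 read 194, 21.7 and 6 (0.994) and the DNA damage kinase Atm read 619, 52.2 and 38.2 (1.01). These genes were picked for their likeness to Kcnq1ot1, so the shared profile is no result. Probe sets at least 2-fold higher on EV1 than on both other arrays made up 9.5% of all tested, 15.9% of those in genes that span at least the length of Kcnq1ot1 (534 of 3355), 1.64% of those in genes under 10 kb (67 of 4084) and 6.46% of those of noncoding RNA genes (23 of 356). Among the imprinted genes 6 of 15 tested probe sets did so, a pair each for Kcnq1ot1, Peg3 and Meg3. Lower on EV1 than on both by 2-fold were 0 of 15 (1.96% of all tested). The spread of Kcnq1ot1 chose these genes and its 1457781_at was tested only through EV1, so this count is no test. The part of gene span in these values was not tested.

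Cdkn1c, the p57 inhibitor of cyclin-dependent kinases that Kcnq1ot1 silences on the paternal copy, was near the floor throughout. Its only probe set read 1.6 on EV1, 15.5 on EV2 and 2.2 on RetSat shRNA, all below the array medians, and was not tested. RetSat shRNA lay between the controls. No detection call shows whether any of these signals stood above background, so no relation to Kcnq1ot1 was read from them.

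No tested neighbour in the cluster had a range like that of Kcnq1ot1, and 0 of 9 were 2-fold or more from both other arrays on EV1. Over all genes 7.92% were that much higher on EV1 and 1.86% that much lower, so 0 of 9 does not set the neighbours apart. All 14 neighbours listed had a probe set and 9 were tested, of which 3 read below both controls and 3 above both (25.4% and 34.4% of all genes), 0 by 2-fold, with median log2 differences of -0.08 from EV1 and 0.07 from EV2 (all genes, 0.14 and 0.00). The tetraspanin Cd81 read 5045 and 6505 on the controls and 7019 on the shRNA array, and Tssc4 read 354, 497 and 512. Dhcr7, the last enzyme of cholesterol synthesis, read 358, 466 and 531. These 3 read highest on RetSat shRNA, though their controls were also apart.

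On the lower side, the cysteinyl-tRNA synthetase gene Cars read 441 and 336 on the controls and 277 on the shRNA array, the nucleosome assembly factor Nap1l4 read 1294, 1122 and 1075, and the haematopoietic tetraspanin Tspan32 read 48.2, 60.6 and 32.3. Osbpl5, a lipid transfer protein, read 137, 119 and 125, between the controls on the shRNA array. The decoy death receptor genes Tnfrsf22 (150, 113 and 150 at its brightest probe set) and Tnfrsf23 (86.5, 58.2 and 81.1) also had RetSat shRNA between the controls. Another Tnfrsf22 probe set read 78.9, 127 and 204 and yet another 62.1, 47.4 and 20.6, so the probe sets of that gene disagree.

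The remaining 5 neighbours were too dim to be tested. Kcnq1, the potassium channel gene in which Kcnq1ot1 lies, read 29.4 and 33.1 on the controls and 4.8 on the shRNA array. Phlda2, a placental growth repressor silenced by the same RNA, read 22.1, 3.1 and 27.7, and the probe sets of the transporter Slc22a18 stayed between 6.3 and 12.4. Ascl2, a placental transcription factor, read at most 6.3, and the taste channel gene Trpm5 at most 48.7. None of these 5 had a probe set whose signal followed that of Kcnq1ot1 over the 3 arrays, from high on EV1 to low on RetSat shRNA.

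**Figure D2:**
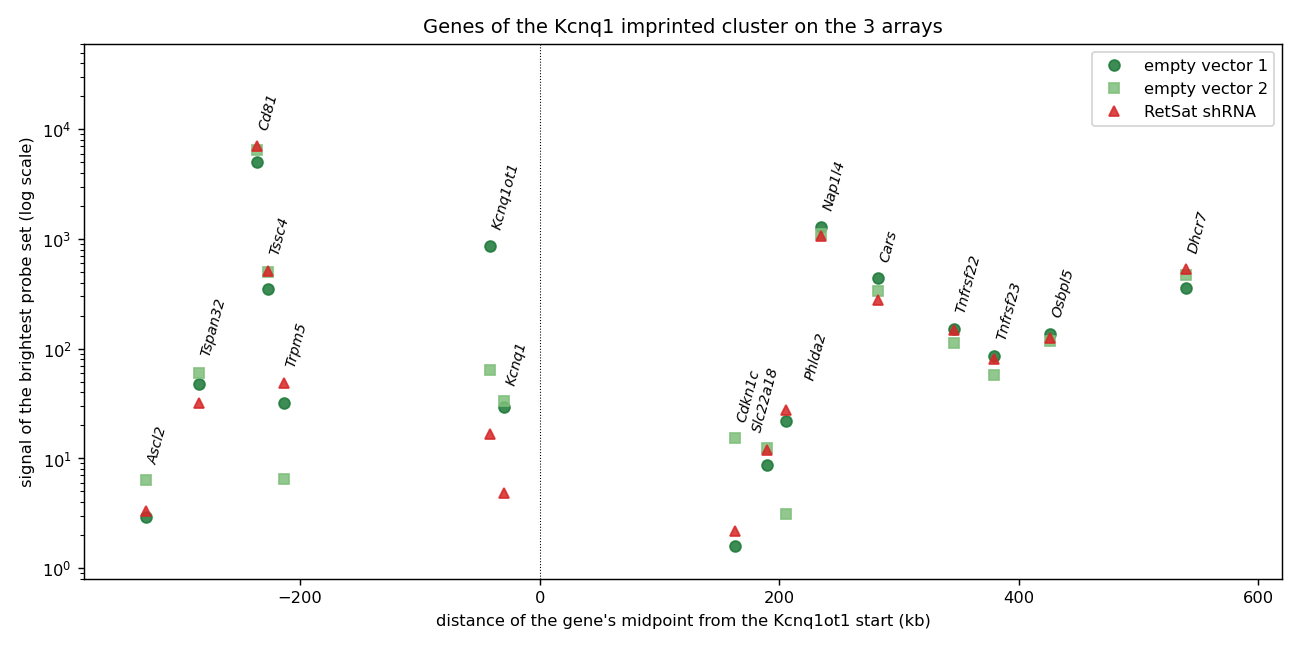
Signal of the brightest probe set (log axis) of each gene of the Kcnq1 cluster against the distance in kb of the gene's midpoint from the Kcnq1ot1 start (dotted line), for the 3 arrays. Kcnq1ot1 spans 872 to 16.6 between arrays, and Cdkn1c is near the floor. The brighter genes Cd81, Nap1l4 and Cars, elsewhere in the cluster, stay within a narrow range, while the dim Kcnq1 and Phlda2 vary more.

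Igf2, the fetal growth factor, had the 1 tested probe set of the group that read highest on RetSat shRNA. Its bright probe set (1448152_at) read 94.3 on EV1, 190 on EV2 and 287 on RetSat shRNA. The single RetSat shRNA array lay above both controls, as it did at 30.8% of all probe sets tested. Its log2 differences from the controls were 1.51 and 0.57, but the controls themselves differed by 0.94. The limma estimate was 1.04 (SE 0.58). The other Igf2 probe set went the other way near the floor, at 12, 6.6 and 4.4.

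Igf2r, the receptor that takes IGF2 to the lysosome, read lowest on RetSat shRNA at both of its probe sets. The brighter (1424112_at) read 527 and 636 on the controls and 446 on the shRNA array, and the other (1424111_at) read 354, 328 and 217. For the second, RetSat shRNA was 0.61 times EV1 and 0.66 times EV2, with controls only 0.11 apart on the log2 scale and differences of -0.68 and -0.57. The limma estimate was -0.62 (SE 0.49, adjusted p = 0.9999). A further probe set annotated to both Airn and Igf2r read 15, 11.8 and 47.3 and is not counted for either gene.

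Airn is the noncoding RNA that runs antisense to Igf2r from the paternal copy, and it resembles Kcnq1ot1 in being long and in silencing its neighbours. Its brightest probe set read 99.7 on EV1, 53.4 on EV2 and 25.2 on RetSat shRNA, and the other tested one read 38.9, 39.5 and 25.8. A dimmer one, not tested, read 80.9, 5.1 and 4.3, and the remaining 2 read at most 22.7. Both tested Airn probe sets were thus lowest on RetSat shRNA, as both of Igf2r were, beside 29.2% of all probe sets tested. Both Airn signals there lay below that array's median of 35.7, and a relation between the genes was not tested.

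Other genes of the IGF axis, which are receptors, adaptors, binding proteins and related genes, showed no common direction. Of the 15 listed, 11 were tested, with 5 above both controls (34.4% of all genes), 2 below both (25.4%) and 0 by 2-fold, and medians of 0.32 from EV1 and -0.07 from EV2. Insr, the insulin receptor, read 164 and 145 on the controls and 111 on the shRNA array, and the adaptor Irs1 read 1149, 1304 and 1012. The IGF-binding protein genes Igfbp5 (44.1, 38.2 and 53.3) and Igfbp7 (2282, 2578 and 2846) read higher than both controls. Of the 7 Notch pathway genes, listed because DLK1 resembles the Notch ligands, 4 were tested and all 4 read above both controls, against 34.4% of all genes, with 0 by 2-fold. These were Notch2 at 1081, 1219.6 and 1311, its ligand Jag1 at 113, 89.3 and 116, the target gene Hes1 at 46, 18.9 and 47.3, and Notch3 at 25.4, 57.2 and 58.3. Jag1, Hes1 and Notch3 exceeded the higher control by little.

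Dlk1 was the brightest of the imprinted genes' probe sets and differed little between arrays. DLK1 is a membrane protein of preadipocytes that holds back adipocyte differentiation. The bright probe set read 8284 on EV1, 6132 on EV2 and 5440.3 on RetSat shRNA, and the other read 87.7, 79.7 and 64.1. Both were lowest on RetSat shRNA, with log2 differences from EV2 of -0.17 and -0.27 and between the controls of -0.43 and -0.12. For the dimmer probe set the difference from each control exceeded the gap between them.

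Meg3, the maternally expressed noncoding RNA of the Dlk1 cluster, had 11 probe sets, of which 5 were tested, and all 5 were lowest on RetSat shRNA. The brightest (1436713_s_at) read 430 on EV1, 140.2 on EV2 and 114 on RetSat shRNA, so most of its range lay between the controls. A pair with the same accession in the annotation read 219.5, 103 and 63.4 for 1426758_s_at and 182, 97.9 and 58.7 for 1452183_a_at. Another, 1452905_at, read 203, 119.6 and 116, where EV2 and RetSat shRNA were level. In contrast, 1439380_x_at read 223 and 210 on the controls and 117 on the shRNA array, a log2 difference of -0.80 from EV2 with controls 0.08 apart. The suffix of that probe set marks probes that may also match other transcripts.

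Log2 differences of the tested Meg3 probe sets from EV2 ran from -0.80 to -0.04 and from EV1 from -1.83 to -0.76. The limma estimates with the lowest unadjusted p among the imprinted genes were both of Meg3, -1.13 (SE 0.60) and -1.06 (SE 0.56), each with an adjusted p of 0.9999. The 6 dim probe sets were mixed: 4 read highest on RetSat shRNA, such as 1428764_at at 16.8, 15.1 and 47.7, and 1 read lowest there, 1429257_at at 45.9, 32.9 and 7.7. One dim probe set (1436057_at at 53.6, 23.9 and 24.3) missed the filter by 0.04 on the log2 scale, and the nearest above the filter, a Kcnq1ot1 probe set (1457781_at), passed it by 0.93.

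Rian and Mirg, noncoding RNAs downstream of Meg3 in the same cluster, had 2 tested probe sets each. Rian read 56.9, 34.8 and 26.7 at the former and 75.9, 14.2 and 30.9 at the latter. The latter lay under the signal of the filter (33.3) on EV2 and RetSat shRNA. The former lay under it on RetSat shRNA, and its mean log2 signal over EV2 and RetSat shRNA was also under the filter. Both Rian probe sets were thus tested only through their level on EV1. Mirg read 68.3, 43.1 and 52.5 at its brightest, where RetSat shRNA lay between the controls. The lower reading on RetSat shRNA than on EV2 was therefore seen at 1 of the 2 tested Rian probe sets and at neither tested Mirg probe set. Mirg, and the further probe sets of Rian and Airn, were chosen after their values had been seen.

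Peg3, a paternally expressed zinc finger gene, was several times brighter on EV1. Its probe sets 1417355_at and 1433924_at read 891 and 472 there, against 228 and 126 on EV2 and 176 and 105 on RetSat shRNA. EV1 exceeded EV2 by ratios of 3.90 and 3.75, and EV2 exceeded RetSat shRNA by 1.30 and 1.19. Another probe set, not tested, read 155.5, 3.8 and 5.1. RetSat shRNA and EV2 were close in all 3, with log2 differences of -0.36, -0.24 and 0.13. The other 2 probe sets stayed at or below 18.3.

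Plagl1, a paternally expressed zinc finger regulator of other imprinted genes, read 1080 and 882 on the controls and 742 on the shRNA array at its bright probe set, log2 differences of -0.54 and -0.25 with controls 0.29 apart. Its name carries the suffix for probes that may match other transcripts, and its other probe sets read at most 21.8. Mest, a paternally expressed gene of the hydrolase family, read 15 and 9.2 on the controls and 17.4 on the shRNA array at its only probe set, below every array median. Mest, Cdkn1c and H19 thus had no probe set above an array median.

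**Figure D3:**
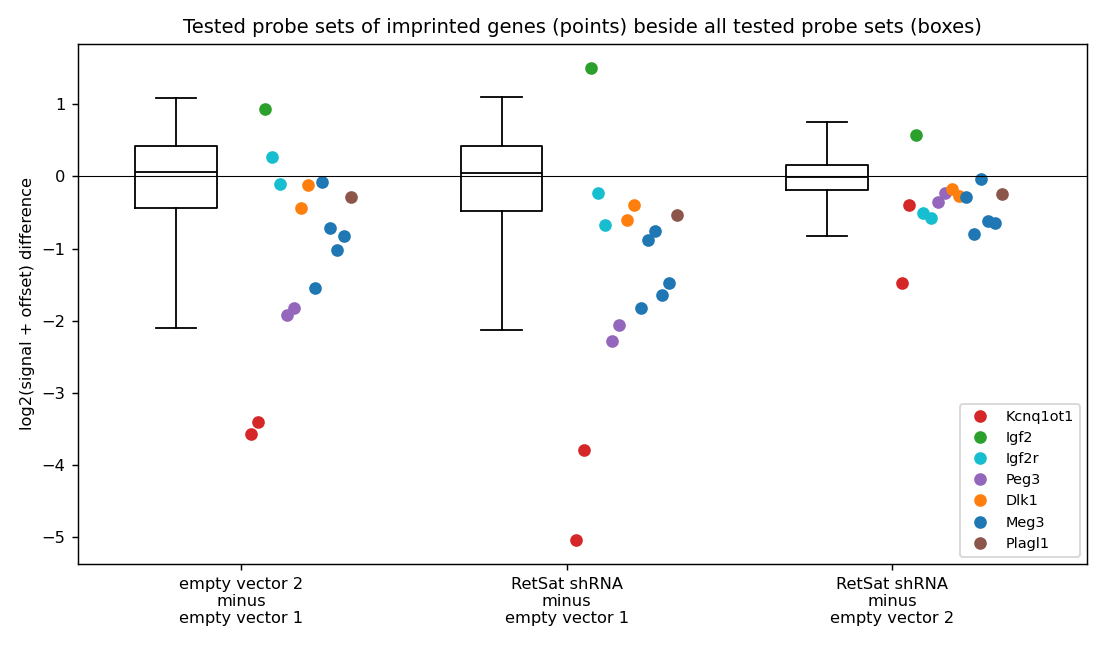
Log2(signal + offset) differences for the 15 tested probe sets of 7 imprinted genes (points, coloured by gene) beside all 19518 tested probe sets (boxes, quartiles and median, with whiskers over the central 95%), for the 3 pairs of arrays. Kcnq1ot1 and Peg3 lie lowest in both comparisons with EV1 and the Meg3 points spread upwards from them, while against EV2 the points run from -1.47 for Kcnq1ot1 to 0.57 for Igf2.

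Further imprinted genes lay on both sides of the controls. Of 23 other paternally expressed genes listed, 9 were tested, with 2 below both controls and 2 above both (25.4% and 34.4% of all genes), and medians of -0.30 from EV1 and 0.15 from EV2. Airn and the amino acid transporter Slc38a4 (1244 and 851 on the controls, 763 on the shRNA array) were below, and Mkrn3 (37.4, 25.8 and 41.7) and Magel2 (46.4, 27.3 and 47.4) were dim and above. Of 17 other maternally expressed genes, 9 were tested, with 3 below both and 3 above both, beside the same shares of all genes, and medians of -0.13 and 0.03. Blcap read 476, 576 and 672, and the G protein subunit gene Gnas read 9149, 9510.5 and 10197. Atp10a, a lipid flippase, read 433, 547 and 395, and Rian was below both controls. Rian was tested only through its level on EV1, so its call is no test. Neither list had a member at least 2-fold from both controls. No difference between these lists and the 7 genes was tested.

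Nuclear and long noncoding RNAs also lay on both sides. Of 16 listed, 12 were tested, 5 above both controls (34.4% of all genes) and 2 below (Airn and Rian, against 25.4%). Rian was tested only through its level on EV1. The list medians were -0.34 from EV1 and 0.17 from EV2. Jpx, an activator of Xist, read 28.4 and 64.9 on the controls and 80.9 on the shRNA array, and the snoRNA host Snhg12 read 658, 807 and 952. Malat1, an abundant nuclear RNA named after its values had been seen, read 899 on EV1 and 385.5 and 399 on the other arrays, and was the 1 RNA of this list at least 2-fold higher on EV1 than on both (7.92% of all genes).

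Genes that maintain imprints and act on chromatin read below both controls or between them. Of the 25 listed, 23 were tested, 9 below both controls and 0 above both, with medians of -0.31 from EV1 and -0.12 from EV2, and 4 were at least 2-fold higher on EV1 than on both other arrays (7.92% of all genes). Over all genes, 25.4% were below both and 34.4% above both. Arid4a is a partner of the retinoblastoma protein that acts at an imprinted locus in mouse. It was the 1 member at least 2-fold lower than both, beside 0.498% of all genes. Its signals were 76.7 and 39.3 on the controls and 10.9 on the shRNA array, which lies below that array's median of 35.7. That signal also lay under the one that the filter corresponds to (33.3). Arid4a was thus tested only through its level on the controls, so its call is no test. Tet1, an enzyme that oxidises methylated cytosine, read 65.8, 42.5 and 32.7, and the Polycomb genes Suz12 (880.3, 910.2 and 731) and Ezh2 (1199, 525 and 461) read lower than both controls.

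Dnmt1, the methyltransferase that copies DNA methylation after replication, read 1379 and 1136 on the controls and 1020.3 on the shRNA array, and its partner Uhrf1 read 1314, 1514 and 1346. Trim28, the corepressor that holds imprints, read 3682.5, 5980.5 and 5895. Smchd1, a chromatin protein that acts at imprinted clusters, read 1067, 195.5 and 200.4, and so was several times brighter on EV1. Of all genes, 7.92% were at least 2-fold higher on EV1 than on both other arrays, and a relation of Smchd1 to Kcnq1ot1 was not tested. These 4 were chosen after their values had been seen, and only Dnmt1 of them lay below both controls.

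Among cyclin-dependent kinase inhibitors, the relatives of Cdkn1c, Cdkn1a and Cdkn1b, were far brighter than the array medians. Of 14 genes of this group listed, 12 were tested, 5 above both controls (34.4% of all genes) and 2 below (25.4%), with medians of 0.54 from EV1 and -0.02 from EV2, and 0 by 2-fold from both. Cdkn1b, the p27 inhibitor, read 380.5 and 406 on the controls and 552 on the shRNA array, and Cdkn1a, the p21 inhibitor, read 957, 1639.6 and 2228.5. Cdk6 (1582, 1589.5 and 1319.9) and the cyclin gene Ccne1 (667, 629.6 and 551.5) were lower than both. None of the genes of these lists passed limma over all probe sets, and the lists were drawn up with earlier results of these data known.

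**Figure D4:**
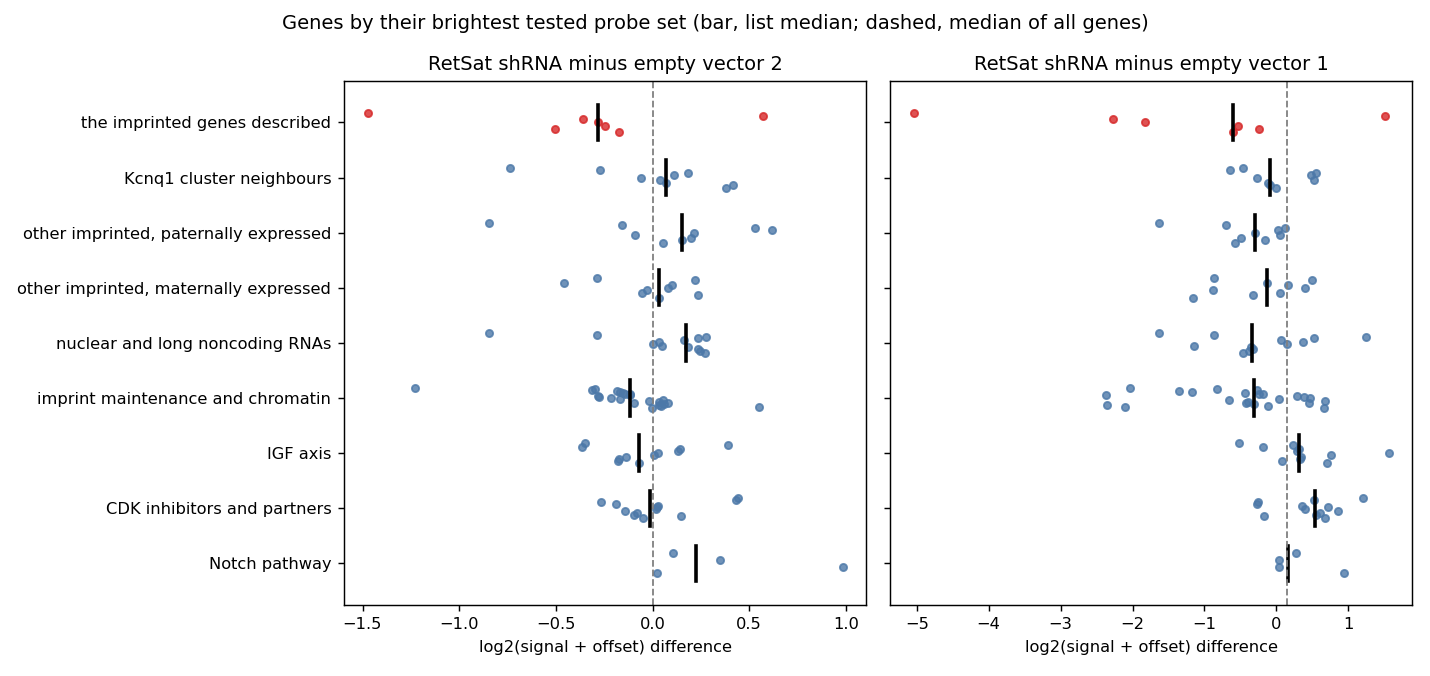
Log2(signal + offset) differences of RetSat shRNA from EV2 (left) and from EV1 (right), with 1 point for each tested gene at its brightest probe set, by list. Bars are list medians and dashed lines the median of all genes, and the imprinted genes described have medians of -0.28 and -0.61.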

How the data were processed

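Gene expression was measured on 3 single-colour oligonucleotide arrays, 2 of empty-vector and 1 of RetSat shRNA NIH3T3 cells, from biotin-labelled total RNA, per the labels. The deposited table holds a linear intensity for each probe set, from 0.1 to 30189.8, with a 2% trimmed mean of 250.002 on each array. The software with which the authors summarised probe sets was not given in the sources used here. No detection calls were used, and the number of arrays limits the precision.

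Genes were named from the platform annotation: 34945 probe sets had 1 symbol, and 34741 of these were found by gene ID in GRCm38.p6, with 0 symbols changed. A value of 10.2 (the 25th percentile) was added before log2, with no further normalization. Probe sets at or above the median of mean log2 signal were tested in limma 3.58.1 (R 4.3.3; lmFit and eBayes, two-sided, Benjamini-Hochberg, 3 arrays, 1 residual degree of freedom, which gives the single shRNA array the spread of the controls). The fit was tested on simulated data. Each list gene was taken at its brightest tested probe set.

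All 10 genes are described. Of each other list, up to 4 genes were named by rank of the smaller of both differences from a control, same direction first, with every neighbour of Kcnq1ot1. The genes, the lists and the tests were chosen with earlier results of these data known.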

Additional observations from a re-analysis of the deposited data

How the results depend on the processing

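No paired analysis was possible because the groups share only the number 2, which EV2 and RetSat shRNA carry. These were also the arrays most alike, and what the number marks is not known. Limma called 0 probe sets in every setting run. Over all tested probe sets 29 were 2-fold higher and 182 lower on RetSat shRNA than on both controls. The higher count became 53 with an offset of 1, 50 with centred arrays and 65 with quantile normalization. Higher and lower counts became 5 and 15 with an offset of 50, 781 and 951 with no filter, 1 and 2 with a filter at the 75th percentile, 10 and 54 with 1 probe set a gene, 273 and 637 at 1.5-fold, and 5 and 36 at 3-fold. Leaving out a control gave 228 to 698 higher and 295 to 2472 lower.

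Of the imprinted probe sets, 1 (Kcnq1ot1) was 2-fold lower and 0 higher. The lower count was 0 with an offset of 50, with the 75th percentile filter and at 3-fold, 4 at 1.5-fold, and 2 with no filter, where 2 were higher. Without EV1 it was 1 with 0 higher, and without EV2 7 with 1 higher. Below each control lay 14 of 15, then 5 of 5 with the 75th percentile filter, 6 of 7 with 1 probe set a gene, 18 of 33 with no filter, and 14 of 15 without either control (these settings were chosen after seeing the data). Against the control mean Cdkn1c was -0.49, and -1.05 to 0.0716 on leaving out a control.

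List medians against the control mean also moved. Leaving out a control gave -0.0829 to 0.0711 for the cluster neighbours (0.17 with both), -0.30 to 0.15 for paternally expressed (-0.04), -0.13 to 0.0328 for maternally expressed (-0.04) and -0.34 to 0.17 for noncoding genes (-0.06), -0.0701 to 0.32 for the IGF axis (0.21), -0.0152 to 0.54 for the CDK group (0.24) and 0.16 to 0.22 for Notch genes (0.34). Centred arrays gave 0.0465, 0.0447 and 0.032 for paternally expressed, maternally expressed and noncoding genes and 0.43 for Notch genes, which had 0.40 and 0.22 with offsets of 1 and 50 and 0.47 with quantile normalization. The maternally expressed median was -0.12 with quantile normalization. The cause was not tested. With 1 shRNA array, no value has a replicate check on that side, and dim probe sets depend on the offset.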
